A study of Homo sapiens with 4 samples.

Results

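The ATP-binding cassette (ABC) transporter genes were followed in the established human cell line SKOV3, derived from an ovarian cancer, grown flat on TCP (tissue culture plate) or as tumor spheroids on polymer X. Their members were taken by symbol, as every gene of the deposited table named ABC, a subfamily letter from A to G and a number. This gave 45 of 19475 gene symbols. Where a symbol had several transcripts, the one with the highest mean FPKM was used. FPKM is the number of sequenced tags on the exons of a transcript scaled to its length in kilobases and to the tags of the library, so levels may be compared between genes. Of the 45 genes, 22 had an FPKM of 1 or more in 2 or more libraries and were tested, among 11964 genes in all. ABCA3, ABCA5 and ABCC8 passed this filter through the polymer X libraries alone, so counts over the tested genes lean toward higher levels there.

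The 2 TCP libraries were placed at day 0 and the 2 polymer X libraries at day 8 by the sample labels. All came from SKOV3, with no inhibitor or transgene named. The study used the spheroids to follow how cancer cells take on stem-like properties. The groups differed in substrate and in time in culture at once, and these cannot be told apart. The study's methods give fetal bovine serum for maintenance and serum replacement (SR) for spheroids, while the labels give SR for all 4 libraries, so the medium on TCP is uncertain. Spheroids were broken up with accutase at intervals, and while the methods speak of independent replicates for all experiments, they do not say which culture each library came from. The p-values therefore measure the spread between these libraries, which may be technical.

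The libraries held 38403000 and 44916000 tags on TCP and 40034000 and 40680000 on polymer X, as recovered from the steps between low values. Replicates correlated at 0.998 on TCP and 0.997 on polymer X across the tested genes, against 0.854 to 0.862 between groups. Of 10 epithelial and ovarian markers, 6 lay at an FPKM of at least 1 in every library, among them ERBB2, KRT8 and PAX8, whereas MUC16, KRT19 and WT1 stayed below 1 and EPCAM exceeded 1 on polymer X only. Of 10 markers of leukocytes, endothelium and hepatocytes, 9 stayed below 1 in every library and CD3E and APOA1 were at 0. Without CD68, which lay at 17.0 to 44.9, these markers summed to 0.0680 to 0.135 on TCP and to 1.29 to 1.51 on polymer X, with PTPRC and PECAM1 the largest. Their part in the results was not tested. In such bulk samples, fewer cells of a type and less RNA per cell cannot be told apart.

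ABC proteins bind and split ATP on paired nucleotide-binding domains, and most couple this to moving a substrate across a membrane. Subfamilies B, C and G hold the pumps that expel anticancer drugs and their conjugates, subfamily A moves mainly lipids, and members of B and D serve mitochondria, lysosomes and peroxisomes. Proteins of subfamilies E and F have the ATPase domains but no membrane part, and act on ribosomes and translation. Ovarian cancers are commonly treated with platinum compounds and taxanes, and taxanes are classical substrates of the pump encoded by ABCB1.

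On polymer X, 3 lipid transporters of subfamily A and 1 drug efflux pump rose, and 2 ABC ATPases of translation fell. Genes were called higher or lower at a limma adjusted p under 0.05 with a log2 fold change of at least 1 in size, on the scale of log2(FPKM + 1). By this criterion 4 of the 22 tested genes rose (ABCA2, ABCA3, ABCA5 and ABCC3), beside 10.7% of all tested genes, and 2 fell (ABCE1 and ABCF2), beside 9.45% of all tested genes. Without the minimum on fold change, 12 were higher and 7 lower, beside 37.4% and 43.6% of all tested genes, and 3, among them ABCA1 and ABCF3, did not pass. The median log2 fold change of the 22 was 0.25, and that of all tested genes was -0.06. ABCA3, ABCA5 and ABCC8 passed the filter through polymer X alone, so these counts and this median lean toward higher levels there. With a pseudocount of 0.1 in place of 1, 9 were called higher and 3 lower, and when the mean FPKM had to reach 5 the median of the members was -0.15.

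**Figure D1:**
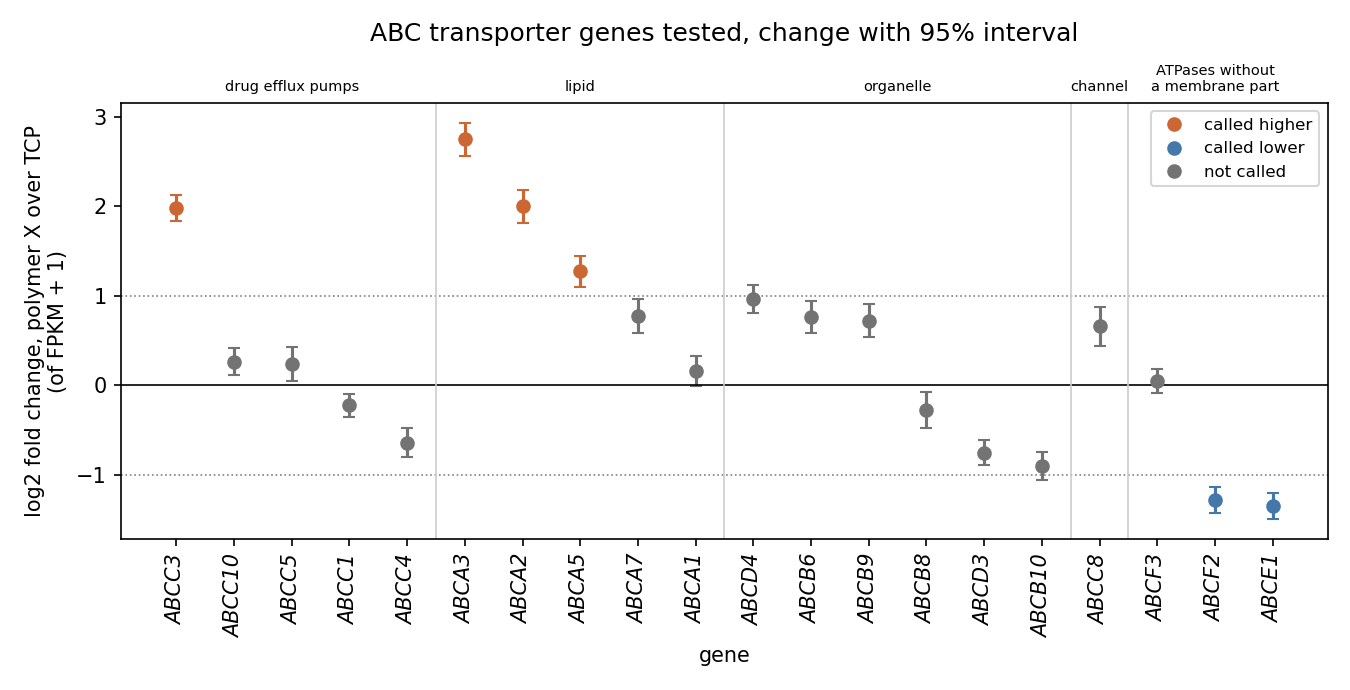
Log2 fold change of FPKM + 1 between polymer X and TCP for 20 of the 22 tested ABC genes, grouped by class, with the limma 95% interval; dotted lines mark the minimum of 1 in either direction. ABCA3, ABCA2, ABCA5 and ABCC3 lie above it at 1.27 to 2.75, and ABCF2 and ABCE1 lie below at -1.28 and -1.35.

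By class, the 17 lipid transporters had 5 tested genes, of which 3 rose, beside 10.7% of all tested genes. Their median log2 fold change was 1.27. ABCA3 and ABCA5 passed the filter through polymer X alone, so this count and this median lean toward higher levels there. The 10 drug efflux pumps had 5 tested genes, of which 1 rose, with a median of 0.24. The 9 organelle transporters had 8 tested genes and no call, with a median of 0.16. At an adjusted p under 0.05 alone, these 8 split into 4 higher and 3 lower, beside 37.4% and 43.6% of all tested genes. The 4 ATPases without a membrane part had 3 tested genes, of which 2 fell, beside 9.45% of all tested genes. The 5 channel regulators and other exporters had 1 tested gene, which was not called. These medians depended on the genes tested: with no filter on low values that of the pumps was -0.020 and that of the lipid transporters 0.082, and at a mean FPKM of at least 5 that of the organelle transporters was -0.41. Without TCP replicate 2, the median of the pumps was 0.13. By subfamily, the calls were 3 in A, 1 in C, 1 in E and 1 in F. Subfamilies B and D, with 5 and 3 tested genes, had none, and none of the 5 genes of subfamily G was tested.

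The summed level moved less than its parts. All genes but ABCF1, which was listed at 0 and has no usable level, together came to an FPKM of 164.1 and 161.4 on TCP and 173.6 and 167.9 on polymer X. The lipid transporters summed to 8.29 and 8.65 on TCP and to 30.6 and 31.4 on polymer X. ABCE1, ABCF2 and ABCF3, the ATPases without a membrane part other than ABCF1, summed to 52.3 and 51.2 on TCP and to 30.6 and 29.2 on polymer X. Within each of these classes, both polymer X libraries lay on the same side of both TCP libraries.

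**Figure D2:**
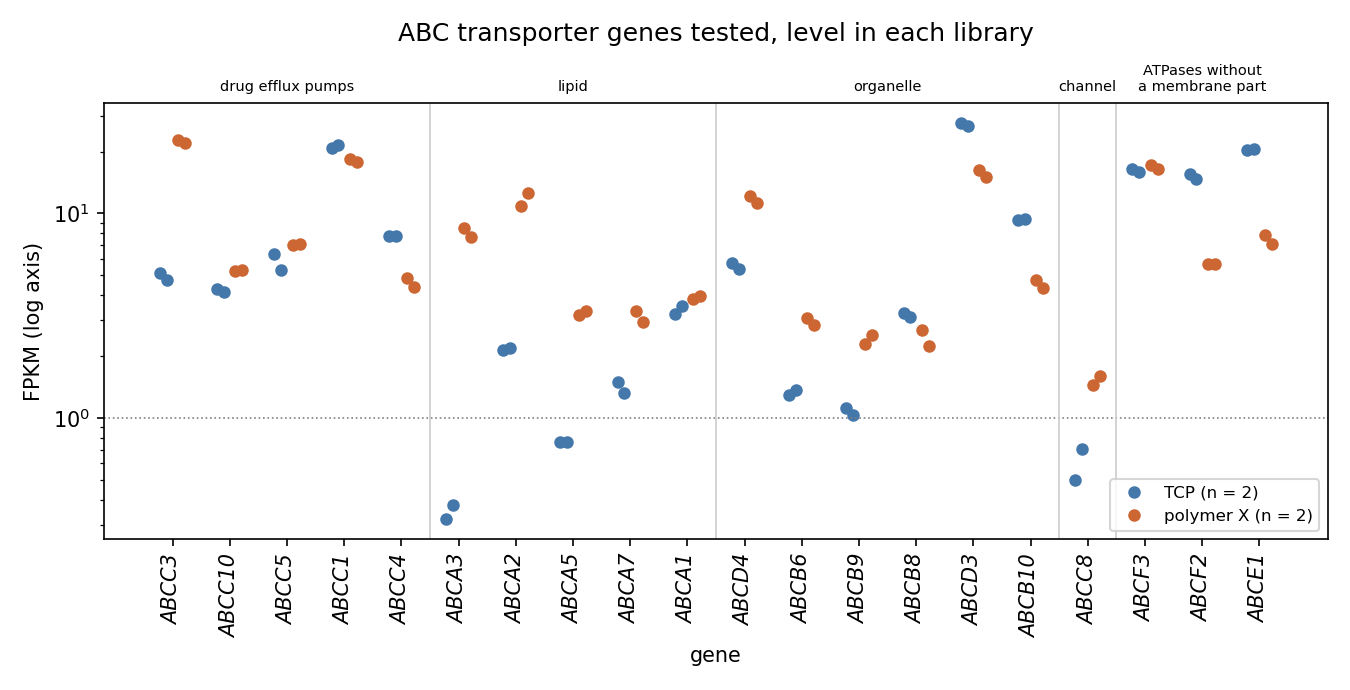
FPKM of 20 of the 22 tested ABC genes in each of the 4 libraries on a log axis, grouped by class, with 1 point for each library; the dotted line marks an FPKM of 1. ABCA3 lies at 0.320 and 0.378 on TCP and at 8.47 and 7.70 on polymer X, and ABCC3 reaches 22.9 and 22.1 there.

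Among the lipid transporters, ABCA3 (NM_001089, hg19 chr16:2325879-2390747, minus strand) carries phospholipids into the lamellar bodies of lung epithelium. Its FPKM was 0.320 and 0.378 on TCP and 8.47 and 7.70 on polymer X, or 0.349 ± 0.0410 (SD, n = 2) and 8.08 ± 0.545. Every polymer X library lay far above both TCP libraries, at 23.2 times the TCP mean. The log2 fold change was 2.75 (SE 0.08, limma adjusted p = 5.2e-09), the largest of the 22. On TCP the value rested on 81 and 112 tags, on polymer X on 2233 and 2063.

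ABCA2 (NM_001606, hg19 chr9:139901686-139922740, minus strand) acts in late endosomes and lysosomes, where it is linked to sterol and sphingolipid handling. It had an FPKM of 2.14 and 2.20 on TCP and of 10.8 and 12.6 on polymer X, which did not overlap. The mean was 5.39 times as high on polymer X, with a log2 fold change of 2.00 (SE 0.08, limma adjusted p = 3.2e-08). Its other transcript gave the same change. C9orf139 on the opposite strand, whose tags the counting could not separate over 825 shared bases, was at most at 0.0260.

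To show where transcription of both genes starts, the 250 bases before each RefSeq start (GRCh38.p14, not the hg19 build of the values) are given on the gene's own strand. They are chr16:2340729-2340978 (minus strand) for ABCA3, and chr9:137028238-137028487 and chr9:137028923-137029172 (minus strand) for ABCA2, whose starts lie 685 bases apart. Capitals mark GGGCGG (the GC box), TGACNNNGC (the core of the antioxidant response element) and CCAAT, on either strand.
ABCA3: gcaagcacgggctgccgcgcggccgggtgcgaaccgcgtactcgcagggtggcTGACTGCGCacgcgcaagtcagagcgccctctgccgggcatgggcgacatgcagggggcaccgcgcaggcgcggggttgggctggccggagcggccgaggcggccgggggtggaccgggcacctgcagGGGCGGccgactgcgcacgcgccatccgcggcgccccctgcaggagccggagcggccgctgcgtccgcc
ABCA2, start nearer the gene body: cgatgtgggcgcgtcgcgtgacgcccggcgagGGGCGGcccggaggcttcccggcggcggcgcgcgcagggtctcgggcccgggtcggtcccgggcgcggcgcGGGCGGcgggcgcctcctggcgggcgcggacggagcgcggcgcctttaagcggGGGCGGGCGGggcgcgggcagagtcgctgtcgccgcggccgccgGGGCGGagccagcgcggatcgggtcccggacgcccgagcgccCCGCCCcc
ABCA2, start farther from the gene body: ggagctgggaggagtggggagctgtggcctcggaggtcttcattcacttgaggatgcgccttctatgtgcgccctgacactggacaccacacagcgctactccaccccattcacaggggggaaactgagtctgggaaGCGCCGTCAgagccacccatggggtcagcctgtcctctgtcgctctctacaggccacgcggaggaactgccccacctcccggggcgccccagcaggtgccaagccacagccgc
The first ABCA2 window held 6 GC boxes, a pair of them sharing 2 bases, and 85.6% of its bases were G or C. The ABCA3 window held 1 GC box and 1 TGACNNNGC, with 79.2% G or C, and the second ABCA2 window held 1 TGACNNNGC. Of 35116 such windows in the RefSeq table, 42.6% held GGGCGG, 10.9% TGACNNNGC and 32.0% CCAAT.

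ABCA5 (NM_172232, hg19 chr17:67240576-67323323, minus strand), a lysosomal member linked to cholesterol, had an FPKM of 0.762 and 0.761 on TCP and of 3.19 and 3.32 on polymer X. The mean was 4.28 times as high, and the groups did not overlap. Its log2 fold change was 1.27 (SE 0.08, limma adjusted p = 4e-07), and after quantile normalization it was 0.93, under the minimum. ABCA7, which exports phospholipids and takes part in phagocytosis, was at 0.77 (0.51 under quantile normalization) and was not called. ABCA1, which loads cholesterol onto apolipoprotein A-I, had a log2 fold change of 0.16, with a 95% interval from -0.01 to 0.33 (limma adjusted p = 0.075), which was 0.0011 under quantile normalization and 0.19 at a common median (adjusted p = 0.039).

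ABCA5 ends a row of 5 subfamily A genes on chromosome 17, in the order ABCA8, ABCA9, ABCA6, ABCA10 and ABCA5. The gaps between the first 4 are 19.2, 17.7 and 6.13 kb, and ABCA10 and ABCA5 overlap by 381 bases on the same strand. The first 4 stayed under the level for testing. ABCA10 had 8 and 19 tags on TCP and 85 and 95 on polymer X, and ABCA9 had 1 and 0 against 25 and 23. Scaled to depth, the pooled tags of ABCA10 were 6.88 times as high on polymer X (95% counting interval 4.58 to 10.7). For ABCA6 the tags were 2 and 1 against 7 and 9, a ratio of 5.51 (1.58 to 29.5), and ABCA8 was at 0 in every library. Thus ABCA10, ABCA9 and ABCA6 each had more tags in both polymer X libraries than in either TCP library. Such separation was common: of the 22 tested members, 14 were higher and 8 lower in both polymer X libraries. Its share over all genes is not given here. A share of the ABCA10 tags may lie on the bases it shares with ABCA5.

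The 10 drug efflux pumps differed widely in level. ABCC3 (NM_003786, hg19 chr17:48712218-48769063, plus strand) encodes MRP3, an exporter of glucuronide conjugates and bile salts that also carries etoposide and methotrexate. It had an FPKM of 5.11 and 4.75 on TCP and of 22.9 and 22.1 on polymer X, or 4.93 ± 0.257 (SD, n = 2) and 22.5 ± 0.599. The groups stood well apart, with a mean 4.56 times as high and a log2 fold change of 1.99 (SE 0.06, limma adjusted p = 8.3e-09). Its shorter transcript gave 1.85.

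The other 4 tested pumps did not reach the minimum of 1. ABCC1, which encodes MRP1, an exporter of glutathione conjugates and anthracyclines, had an FPKM of 20.9 and 21.6 on TCP and of 18.4 and 17.7 on polymer X, with a log2 fold change of -0.22 (limma adjusted p = 0.0054). ABCC4, or MRP4, an exporter of cyclic nucleotides and nucleotide analogs, was at 7.73 and 7.75 on TCP and at 4.85 and 4.37 on polymer X, with -0.64 (limma adjusted p = 2.5e-05). Both were lower in both polymer X libraries than in either TCP library, but under quantile normalization ABCC1 was at -0.030 (limma adjusted p = 0.63), and without TCP replicate 2 at -0.20 (adjusted p = 0.053). ABCC5, or MRP5, which carries nucleotide analogs too, was at 6.31 and 5.30 on TCP and at 6.97 and 7.05 on polymer X, with 0.24 (limma adjusted p = 0.023). ABCC10, or MRP7, a pump with taxanes among its substrates, was at 4.28 and 4.14 on TCP and at 5.23 and 5.31 on polymer X, with 0.27 (limma adjusted p = 0.0053). Without TCP replicate 2, ABCC5 was at 0.13 (limma adjusted p = 0.22), and without polyX replicate 1 or 2 its adjusted p was 0.074 or 0.090. ABCC10 was at 0.17 under quantile normalization (limma adjusted p = 0.047). The ABCC5 replicates on TCP lay farther apart than those of the other tested pumps there. These ABCC5 values came from a transcript of 1986 bases. Its longest transcript, of 5947 bases, was at 5.35 and 5.48 on TCP and at 7.04 and 6.55 on polymer X. With the longest transcript of every gene, ABCC5 was at 0.28 (limma adjusted p = 0.0037). ABCC10 shares 74 bases with DLK2 on the opposite strand, which was at 3.62 and 4.19 on TCP and at 7.44 and 8.09 on polymer X.

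**Figure D3:**
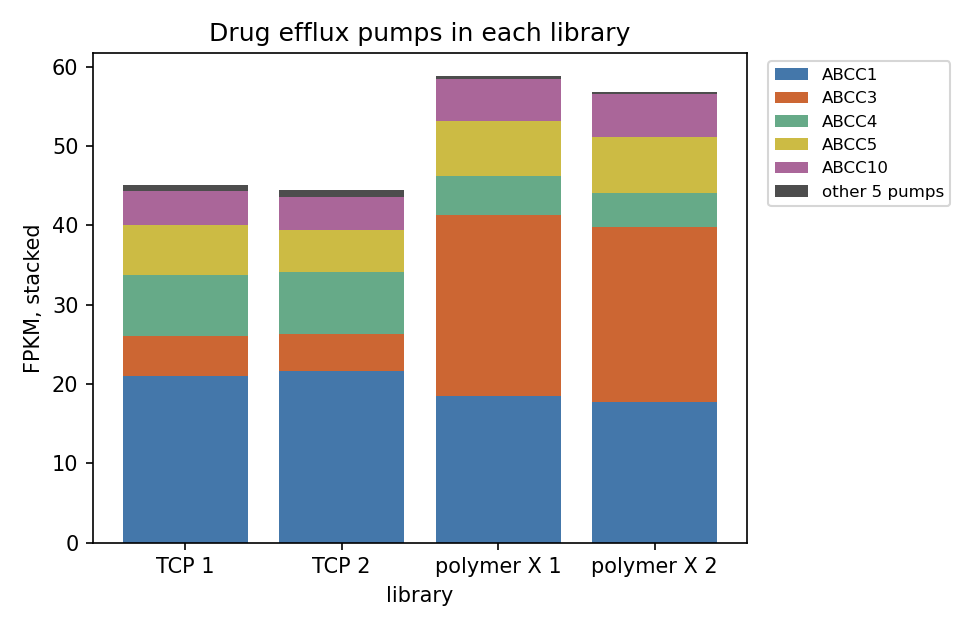
FPKM of the drug efflux pumps stacked for each library, with the 5 tested pumps in color and the other 5 in dark grey. The stack reaches 45.1 and 44.5 on TCP and 58.8 and 56.8 on polymer X, and the ABCC3 segment goes from 5.11 and 4.75 to 22.9 and 22.1.

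The pumps together had an FPKM of 45.1 and 44.5 on TCP and of 58.8 and 56.8 on polymer X. ABCC3 made up 11.3% and 10.7% of this sum on TCP and 39.0% and 38.8% on polymer X. For ABCC1 the shares were 46.4% and 48.5% on TCP and 31.4% and 31.1% on polymer X. ABCC1 thus led on TCP and ABCC3 on polymer X, where its 2 values lay above both of ABCC1.

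The pumps best known for multidrug resistance stayed under the level for testing. ABCB1, the gene of P-glycoprotein, had 4 and 4 tags on TCP and 0 and 3 on polymer X, with an FPKM of at most 0.0240. ABCG2, the gene of the breast cancer resistance protein that also sheds the Hoechst dye in side population assays, had 48 and 55 tags on TCP and 15 and 17 on polymer X. Its FPKM was 0.296 and 0.290 on TCP and 0.0890 and 0.0990 on polymer X. ABCG2 was thus lower in both polymer X libraries, by 3.12 times over the pooled tags (95% counting interval 2.08 to 4.79). With no filter on low values, its log2 fold change was -0.24 (limma adjusted p = 0.0011), a scale that compresses changes at such levels.

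ABCC2, the MRP2 pump with cisplatin conjugates among its substrates, had the highest TCP level of the genes that were not tested. Its FPKM was 0.428 and 0.646 on TCP and 0.291 and 0.195 on polymer X. Its pooled tags were 2.25 times as many on TCP (95% counting interval 1.78 to 2.85), though the replicates of each group also lay well apart. ABCC11 had 5 and 1 tags on TCP and 2 and 8 on polymer X, which overlapped, and ABCB5, known from melanoma stem-like cells, was at 0 in every library. These counting intervals cover counting error only, and are too narrow if tags came in pairs.

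**Figure D4:**
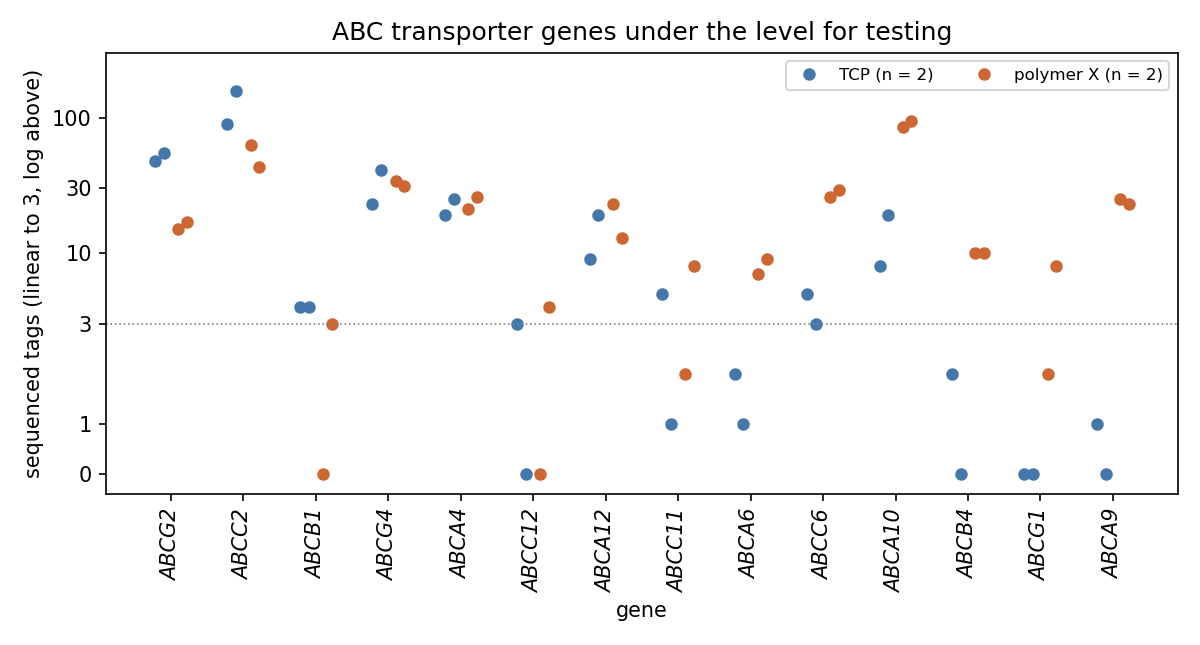
Sequenced tags in each library for the 14 ABC genes that were not tested but had more than 3 tags in some library, on an axis that is linear to 3 (dotted) and log above, with 1 point for each library. ABCG2 goes from 48 and 55 tags on TCP to 15 and 17 on polymer X, and ABCA10 from 8 and 19 to 85 and 95.

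Of the 23 genes that were not tested, 6 were at 0 in every library, 3 never exceeded 3 tags and 14 did. ABCA8, ABCB5, ABCB11, ABCD2 and ABCG8 were at 0, where 3 tags would allow an FPKM of up to 0.00967 to 0.0295, depending on length and library. ABCF1 was also listed at 0, with 7 genomic copies in the table, its row lying on a chromosome 6 haplotype. Of the 484 symbols whose row had more than 1 copy, 269 were at 0 throughout, beside 2323 of the 18991 with 1 copy, so no level is given for it.

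Among the exporters of sterols and phospholipids, ABCG1, which moves cholesterol to HDL, had 0 and 0 tags on TCP and 2 and 8 on polymer X, of which the first lies under a floor of 3 tags, so no fold is given. ABCB4, the phosphatidylcholine exporter of the bile canaliculus, had 2 and 0 tags on TCP and 10 and 10 on polymer X. ABCC6, of the class of channel regulators and other exporters, is a gene whose loss causes pseudoxanthoma elasticum. It had 5 and 3 against 26 and 29, a ratio of 7.10 (95% counting interval 3.36 to 17.3). ABCB4 and ABCC6 thus had more tags in both polymer X libraries than in either TCP library, all at low counts. ABCC6 has nearly identical pseudogenes that can take its tags. The ranges of the 2 groups overlapped for ABCA4 (at most 0.0880 FPKM), ABCA12 (0.0710), ABCG4 (0.239), ABCG5 (0.0280) and ABCC12 (0.0190), while ABCA13 (0.00300) and ABCC9 (0.00600) had at most 2 tags.

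The ATPases without a membrane part were among the most abundant members on TCP. ABCE1 (NM_002940, hg19 chr4:146019156-146050676, plus strand) splits ribosomes after termination and is essential for their recycling. It had an FPKM of 20.4 and 20.6 on TCP and of 7.83 and 7.07 on polymer X, or 20.5 ± 0.132 (SD, n = 2) and 7.45 ± 0.538. It fell by 1.35 on the log2 scale (SE 0.07, limma adjusted p = 1e-07), and the polymer X libraries lay at well under the TCP level. ANAPC10, which shares 538 bases on the opposite strand, was at 5.39 and 4.62 on TCP and at 3.16 and 2.21 on polymer X.

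ABCF2 (NM_005692, hg19 chr7:150904923-150924460, minus strand), a relative of the yeast translation factors of this subfamily, had an FPKM of 15.5 and 14.7 on TCP and of 5.64 and 5.64 on polymer X. It fell by 1.28 (SE 0.06, limma adjusted p = 1e-07), with no overlap. ABCF3, of the same subfamily, was at 16.4 and 16.0 on TCP and at 17.1 and 16.5 on polymer X, with a log2 fold change of 0.05 (limma adjusted p = 0.44). Its 95% interval ran from -0.08 to 0.18, and under quantile normalization it was at 0.22 (limma adjusted p = 0.0045), whereas ABCF2 and ABCE1 were each lower in both polymer X libraries.

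The starts of ABCE1, chr4:145098061-145098310 (plus strand), and ABCF2, chr7:151227206-151227455 (minus strand), are given in the same way, with the same motifs in capitals, since these were the called genes that fell.
ABCE1: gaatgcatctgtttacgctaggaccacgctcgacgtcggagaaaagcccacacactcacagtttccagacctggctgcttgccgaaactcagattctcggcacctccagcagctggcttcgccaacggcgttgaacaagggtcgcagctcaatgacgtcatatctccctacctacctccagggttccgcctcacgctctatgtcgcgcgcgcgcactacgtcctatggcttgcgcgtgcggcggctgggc
ABCF2: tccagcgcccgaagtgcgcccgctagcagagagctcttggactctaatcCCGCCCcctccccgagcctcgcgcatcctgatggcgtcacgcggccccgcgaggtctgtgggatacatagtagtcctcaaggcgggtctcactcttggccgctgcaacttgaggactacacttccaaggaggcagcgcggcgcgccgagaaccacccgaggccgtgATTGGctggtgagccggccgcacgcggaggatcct
The ABCE1 window held none of the 3 motifs, and that of ABCF2 held 1 GC box and 1 CCAAT on the opposite strand, 35 bases before the start. Neither window, nor those of ABCA2 and ABCA3, held CACGTG (the E-box) or TTCNNNGAA (the STAT consensus), which occurred in 6.34% and 6.57% of all windows. Among the 53 windows of the 35 ABC genes in the table, 9 held CACGTG, 25 GGGCGG, 11 CCAAT, 2 TTCNNNGAA and 9 TGACNNNGC.

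The organelle transporters split in direction without a call. On the higher side were ABCD4, which releases cobalamin from lysosomes, at a log2 fold change of 0.96, ABCB6, a porphyrin transporter, at 0.77, and ABCB9, a lysosomal peptide transporter, at 0.72. On the lower side were ABCB10, a mitochondrial member needed for heme synthesis, at -0.90, ABCD3, the peroxisomal PMP70, at -0.75, and ABCB8, a mitochondrial member, at -0.27. These 6 passed an adjusted p under 0.05 with limma, the weakest being ABCB8 at 0.016. At that threshold alone, 37.4% of all tested genes were higher and 43.6% lower. ABCB8 was at -0.18 without polyX replicate 2 (limma adjusted p = 0.096) and at -0.25 without TCP replicate 1 (0.075). Under quantile normalization it was at -0.50, ABCB6 at 0.49 and ABCB9 at 0.41. ABCD4 lay close to the minimum, since it reached 1.00 without TCP replicate 1 and 1.01 without polyX replicate 2.

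ABCD3 was the most abundant ABC gene on TCP, with an FPKM of 27.6 and 26.5, against 16.3 and 15.1 on polymer X. Its shorter transcript (NM_001122674, of 956 bases) was at 30.7 and 28.5 on TCP and at 10.7 and 9.75 on polymer X. The change was thus -1.45 for the short transcript and -0.75 for the long one, and -1.10 for their sum. ABCC4 differed in the same direction, with -0.64 for its full transcript and -0.88 for a shorter one, while the 23 transcripts of ABCD4 ranged from 0.93 to 1.00. Transcripts of a gene share tags, so they are not separate measurements. ABCC8, the sulfonylurea receptor of the KATP channel, was at 0.496 and 0.703 on TCP and at 1.44 and 1.60 on polymer X, with a log2 fold change of 0.66 that became 1.12 for the sum of its transcripts and 0.19 under quantile normalization (limma adjusted p = 0.10).

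The order of levels changed accordingly. On TCP it ran from ABCD3 through ABCC1, ABCE1, ABCF3 and ABCF2. On polymer X it ran from ABCC3 through ABCC1, ABCF3, ABCD3, ABCD4, ABCA2 and ABCA3, where ABCD4 and ABCA2 swapped places between replicates. ABCC3 went from rank 11 of the 22 tested genes to rank 1, ABCA3 from 22 to 7, and ABCA2 from 16 to 6. ABCA3, like ABCA5 and ABCC8, was ranked only because it passed the filter through polymer X. Its low rank on TCP thus followed from the filter. In the other direction, ABCB10 went from 6 to 15, ABCC4 from 7 to 13, ABCF2 from 5 to 11 and ABCE1 from 3 to 8.

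Genes that work with the ABC proteins were counted from lists written out from general knowledge. Of 16 nuclear receptors and other regulators of ABC genes, 12 were tested and 3 rose, beside 10.7% of all tested genes. At an adjusted p under 0.05 with limma alone, 8 were higher and 3 lower, beside 37.4% and 43.6% of all tested genes. Higher but not called were PPARA, SREBF2, NR1H3, PPARD and NR1H2, at 0.70, 0.70, 0.53, 0.36 and 0.23. Lower but not called were HIF1A, PPARG and RXRA, at -0.71, -0.54 and -0.32. AHR, which induces drug-metabolizing genes, was at 4.03 and 3.90 on TCP and at 15.2 and 12.9 on polymer X, with a log2 fold change of 1.60 (limma adjusted p = 1.4e-07). EPAS1, or HIF2A, went from 9.33 and 9.08 to 43.7 and 45.0, with 2.15 (limma adjusted p = 3e-09), and SREBF1 was at 1.01 (limma adjusted p = 1.1e-06). NFE2L2, the gene of NRF2, was at -0.04 (limma adjusted p = 0.50), and the xenobiotic receptor NR1I2 was at most at 0.0270 and was not tested. RXRB, with 6 genomic copies in the table, was not tested either, and its level is uncertain.

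Of 8 genes known to respond to the sterol receptors LXR, 7 were tested and 2 rose, APOE and SREBF1, with a median log2 fold change of 0.81, beside 10.7% called higher and a median of -0.06 over all tested genes. APOE and SMPDL3A passed the filter on low values through polymer X alone, so both the count and the median lean toward higher levels. APOE was at 0.237 and 0.350 on TCP and at 4.44 and 4.72 on polymer X, with 2.11 (limma adjusted p = 2.8e-08). Of a list of 8 genes, made up of membrane scaffolds and MVP, the major vault protein of the cytoplasm, all were tested and 3 fell, with a median of -0.84, beside 9.45% called lower over all tested genes. EZR, which links membrane proteins to actin, went from 329 and 345 to 59.8 and 59.4, with -2.48. CAV1 was at -1.93 and PDZK1, which binds the tails of MRP2 and MRP4, at -2.51. These were the genes of that list called, and SLC9A3R2 and MVP were on the higher side at 0.63 and 0.92.

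Of 8 translation and ribosome recycling partners of ABCE1 and the F subfamily, all were tested and 4 fell, with a median of -0.996, beside 9.45% called lower over all tested genes. They were EIF2S1 at -1.31, EIF2S2 at -1.04, EIF3J at -1.30 and GCN1 at -1.14, and the other 4 were lower too at an adjusted p under 0.05, as were 43.6% of all tested genes. PELO, which rescues stalled ribosomes ahead of ABCE1, was at -0.34. Of 6 genes of peroxisomal membrane import and cobalamin handling, LMBRD1, the lysosomal partner of ABCD4, rose with 1.35, and MMACHC, which binds cobalamin in the cytosol, fell by 1.05. These calls, 1 higher and 1 lower of 6 tested, stand beside 10.7% higher and 9.45% lower over all tested genes. All 8 mitochondrial iron and heme partners were tested and none was called, though 1 was higher and 5 lower at an adjusted p under 0.05 with limma, with a median of -0.27, beside 37.4% higher and 43.6% lower over all tested genes. Of the KATP channel pores, KCNJ8 and KCNJ11, neither was tested.

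Of the ABC genes under other symbols, CFTR was at 0 in every library, TAP1 was at 0.257 and 0.417 on TCP and at 1.43 and 1.17 on polymer X, and TAP2 had a log2 fold change of -0.13. TAP1 was at 0.78 (limma adjusted p = 6.1e-05) and was not called. It passed the filter through polymer X alone. TAP1 and TAP2 have 8 genomic copies each in the table, so their levels are uncertain. Of 4 partners in peptide loading, TAPBP has 5 genomic copies, so its level is uncertain too. B2M alone was called, beside 10.7% called higher over all tested genes. It went from 737 and 676 on TCP to 2360 and 2271 on polymer X, with 1.71 (limma adjusted p = 7.8e-08).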

How the data were processed

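RNA-seq values of 4 SKOV3 libraries were analysed, 2 on TCP and 2 on polymer X. The authors deposited FPKM values of 50078 RefSeq transcripts on hg19, made with HOMER from tags on exons of either strand and rounded to 3 decimals, with replicates kept apart. The submitters' processing notes also name STAR 2.4.0 and DESeq, with no role given. The library kit kept strand but the counting did not, so overlapping genes on opposite strands cannot be separated. The file header names 8 tag directories, and the 4 columns of this series were used.

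Tags per library were recovered from the steps of FPKM times length. Each of the low values taken for this came within 0.1 of a whole tag, and 50.0% to 54.9% of them were even. A floor of 3 tags is an FPKM of 0.0334 to 0.0391 at 2000 bases. Counting intervals are exact, at 95%.

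Genes that had an FPKM of 1 or more in 2 or more libraries were fitted by limma 3.58.1 (R 4.3.3) after log2(FPKM + 1), using a variance trend, no replicate block and Benjamini-Hochberg adjustment over all 11964 genes. A fold change on this scale understates changes of low genes. An exact permutation test of 2 against 2 cannot give a two-sided p under 0.333. The fit was tested on simulated data in which far fewer genes changed than here. This checks the code and does not show how the fit performs on these data. Called members and tested pumps are given in full, other tested members by fold change and the rest by tags or highest FPKM. Of the tested members, 2 enter the counts, sums and medians but are not reported here. Members and lists were chosen with earlier results of these data known. Alternatives were pseudocount, filter, scaling, transcript choice, variance trend, replicate block and leaving out each library. Promoters came from the RefSeq table of GRCh38.p14, matched by symbol for 35 of 45 genes. Plots were drawn with matplotlib 3.10.9.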

Additional observations from a re-analysis of the deposited data

How the results depend on the processing

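The calls of ABCA2, ABCC3, ABCE1 and ABCF2 held under every alternative fit run at the same criterion, and no tested member changed direction. Under quantile normalization, ABCC1, ABCC8 and ABCF3 crossed an adjusted p of 0.05. The call of ABCA3 was lost with a mean FPKM of at least 5, where it was not tested, and that of ABCA5 there and under quantile normalization (0.93). The count of members called higher, 4 as reported, was 9 with a pseudocount of 0.1, 2 with a mean FPKM of at least 5, 12 with no fold change minimum and 1 with a minimum of 2 on the log2 scale. The count called lower, 2 as reported, was 7 with no fold change minimum and 0 with limma at that minimum of 2, where 7 had an adjusted p under 0.05. With the pseudocount of 0.1, ABCA7, ABCB6, ABCB9, ABCC8 and ABCD4 were also called higher and ABCB10 lower, and for the sum of transcripts ABCC8, ABCD4 and ABCD3 passed. Leaving out each library in turn gave 4 to 5 higher and 2 lower, where a lone library is assumed to vary like the other group.

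Medians of log2 fold changes depended on which members were tested. For all members (0.25 as reported) the median was 0.30 with a pseudocount of 0.1, 0.043 with no filter, -0.15 with a mean FPKM of at least 5, 0.21 under quantile normalization, 0.29 at a common median and 0.29 for the sum of transcripts, and 0.23 to 0.29 with each library left out. For drug efflux pumps (0.24) it was 0.27, -0.020, 0.0081, 0.17, 0.28 and 0.032 in the same order, and 0.13 to 0.29 with each library left out, 0.13 being the value without TCP replicate 2. For lipid transporters (1.27) it was 1.96 with a pseudocount of 0.1, 0.082 with no filter, 2.00 with a mean FPKM of at least 5, 0.93 under quantile normalization and 1.56 for the sum of transcripts. For organelle transporters (0.16) it was -0.41 with a mean FPKM of at least 5 and 0.083 under quantile normalization. With the replicate block, the counts were 4 and 2 and the median 0.25. Same-numbered libraries deviated together at a correlation of 0.0927, so the numbers were not taken as pairs. At these depths, members with a few tags allow counting intervals only.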
